A study of Mus musculus with 6 samples.

Results

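Hsp90 is an abundant ATP-dependent chaperone that completes the folding of signalling proteins, called its clients, such as kinases and steroid receptors. Cochaperones deliver clients to it, set the speed of its ATP cycle and hold it in its open or closed form. Heat shock factors bind repeats known as heat shock elements near the start of many chaperone genes, and Hsf4 is the heat shock factor known for its role in the lens. The genes described here are 10 Hsp90 chaperones and cochaperones listed by name: Hsp90aa1, Hsp90ab1, Hsp90b1, Ahsa1, Ahsa2, Stip1, Fkbp4, Ptges3, Cdc37 and Chordc1. A gene counted as measured where at least 1 probe set, a group of short oligonucleotides against one transcript, carried its symbol alone in the annotation of the array. That held for 8 of the 10 genes, out of 12393 genes on the array, with 13 probe sets between them. No probe set carried the symbol of Hsp90ab1 alone, and 2 probe sets for Ptges3 also named a pseudogene, so both genes were not analysed here.

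Lenses came from newborn mice, labelled as strain ICR in both groups, either wild type or HSF4 null and otherwise untreated. Each group holds 3 arrays, described as biological replicates, and each array started from 50 ng of lens RNA. The sources used here do not say how the null allele was made, or whether an array holds the lenses of 1 animal or several. Values are log2 RMA intensities, a normalized brightness that ranges up to 14.37, with array medians from 5.22 to 5.38. Log2 values correlated at 0.991 to 0.994 within groups and 0.982 to 0.990 between groups. The probe set of Hsf4 itself lay at 9.09, 9.39 and 9.56 in wild-type, against 4.26, 4.09 and 3.78 in Hsf4-null lenses, and it fell by 5.30 on the log2 scale (limma adjusted p = 9.54e-06). Whether it lies inside the deleted part is not stated. In whole lenses, fewer cells of a type and less RNA per cell cannot be told apart.

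To show what lies at the starts of these genes, 300-base windows from RefSeq (GRCm38.p6), 250 bases before and 50 after each start site, were searched for heat shock elements. Windows were held for 8 of the 10 genes, those of Hsp90aa1 and Hsp90ab1 being the exceptions. The search was for GAANNTTC or TTCNNGAA, which are 2 facing units, and for GAANNTTCNNGAA or TTCNNGAANNTTC, which are 3, on both strands. Each match of 3 units also holds 2 overlapping matches of 2 units. Of 32851 windows in the table, 15.1% held 2 units and 0.603% held 3. Among the 8 windows, 3 held 2 units and 1, that of Chordc1, held 3. The 30 bases around these matches are shown because Chordc1 differs here from Fkbp4 and Cdc37, with the matches in capitals.
Chordc1, plus strand, chr9:18292259-18292288: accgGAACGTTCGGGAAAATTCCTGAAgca
Cdc37, minus strand, chr9:21150086-21150115: tcggcgggaacTTCCAGAAggcctcaccac
Fkbp4, minus strand, chr6:128438789-128438818: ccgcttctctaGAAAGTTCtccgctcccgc
The capitals of Chordc1 are 23 bases with 5 alternating units in a row, from 4 bases before the start site to base 19 of the transcript. A further match of 2 units follows at bases 34 to 41 of the same transcript. In Cdc37 and Fkbp4 the single match of 2 units lies farther off, at bases -170 to -163 and -151 to -144 relative to the start.
The windows of Ahsa1, Ahsa2, Stip1, Hsp90b1 and Ptges3 held neither form, which says only that these letters are not there. The Ahsa1 window starts from a site 313 bases inside the annotated gene, so it does not cover the gene's outer edge. Hsp90b1 held a different element. The endoplasmic reticulum stress element, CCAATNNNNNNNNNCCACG or on the other strand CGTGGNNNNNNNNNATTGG, is known from genes induced by unfolded proteins in that compartment. It was found in 0.119% of all windows and 2 times in that of Hsp90b1, once in each orientation, as the capitals in the 250 bases before the start show.
Hsp90b1, minus strand, chr10:86705445-86705694: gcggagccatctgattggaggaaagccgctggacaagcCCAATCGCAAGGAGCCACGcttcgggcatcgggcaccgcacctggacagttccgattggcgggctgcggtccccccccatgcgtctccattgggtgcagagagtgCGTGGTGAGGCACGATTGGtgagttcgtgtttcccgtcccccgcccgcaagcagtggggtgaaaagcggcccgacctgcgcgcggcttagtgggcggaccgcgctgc
The matches are descriptions of the reference sequence. Binding was not measured in these samples.

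**Figure D1:**
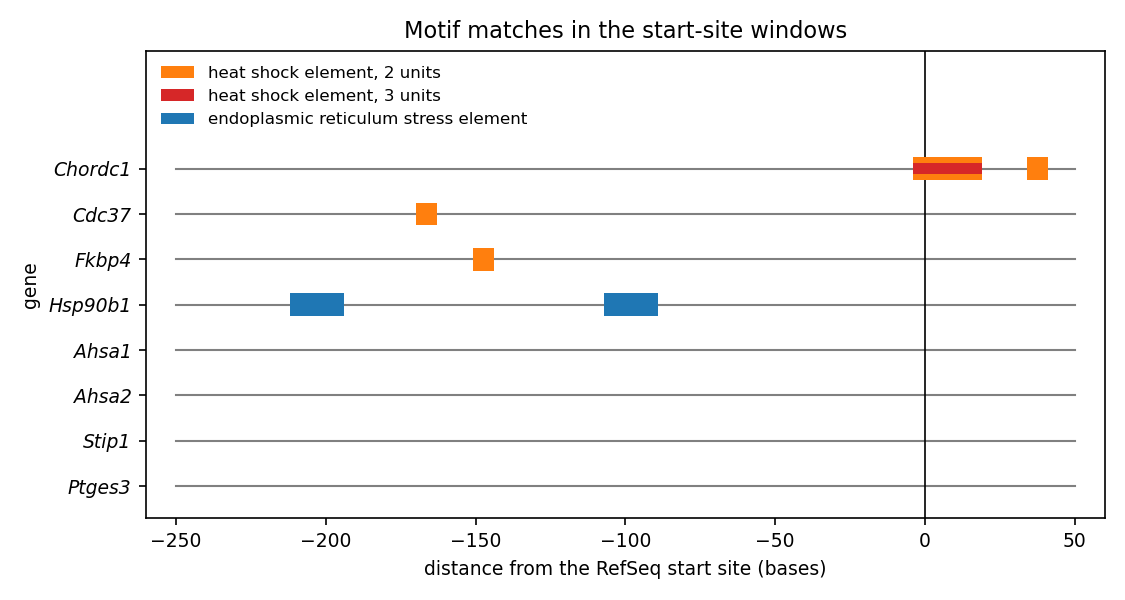
Matches to heat shock elements of 2 units (orange) and 3 units (red) and to the endoplasmic reticulum stress element (blue) in the windows of 8 genes, with distance from the RefSeq start site in bases on the horizontal axis and 1 gene per row. Chordc1 is the row with 3-unit matches, at its start site, and Hsp90b1 the row with 2 stress elements.

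Loss of Hsf4 was accompanied by lower transcripts of 4 of the 8 measured genes, Ahsa2, Ahsa1, Stip1 and Chordc1, all cochaperones. Of the 8 genes, each by its brightest probe set, 4 were lower and 0 higher at an adjusted p under 0.05 from limma, which fits each probe set and borrows information on variance from the others. Over all 12393 genes 2.11% were lower and 0.775% higher by the same rule. At an unadjusted p under 0.05, 5 of the 8 were lower and 0 higher, by limma and by the methods' t-test alike. Over all genes the shares at that threshold were 8.38% lower and 7.34% higher by limma, and 7.6% lower and 5.79% higher by the methods' t-test. In 5 genes every Hsf4-null array lay below every wild-type array, against 11.5% of all genes, and in 0 genes above, against 10.1%. The median log2 difference, Hsf4-null minus wild-type, was -0.42 over the 8 genes and 0.01 over all genes. The remaining 4 genes, Hsp90aa1, Hsp90b1, Fkbp4 and Cdc37, did not pass by their brightest probe set. Counted by probe set, 6 of 13 were lower, 2 of them of Hsp90aa1, against 1.94% of 22626 probe sets.

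**Figure D2:**
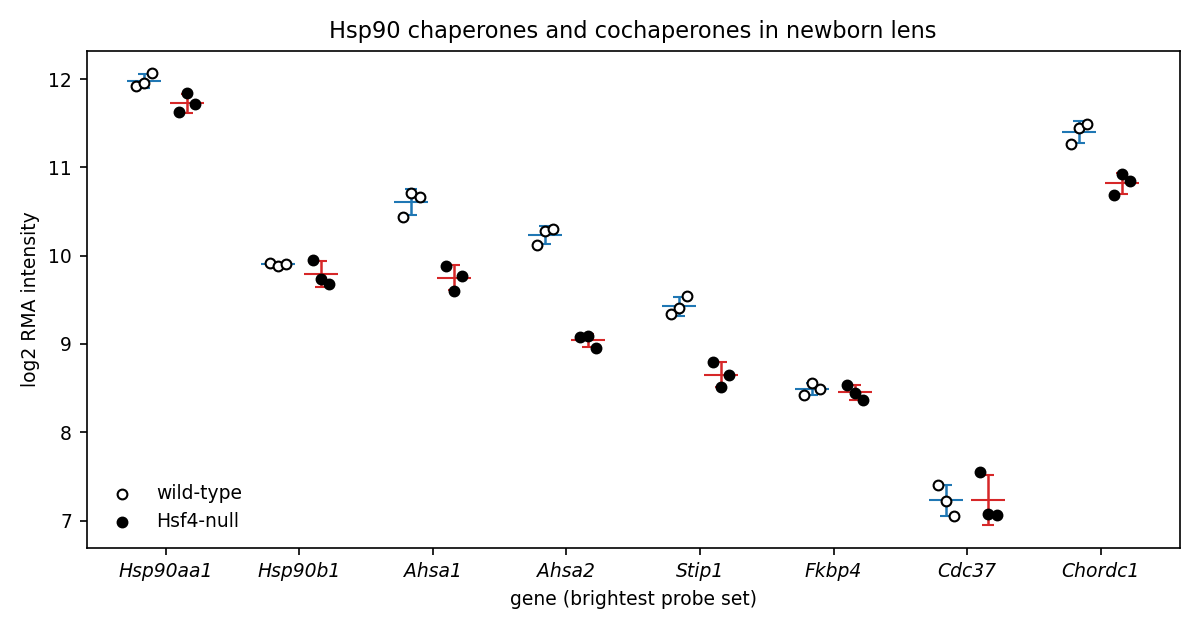
Log2 RMA intensity (vertical axis) of the brightest probe set of 8 genes on each wild-type (open points) and Hsf4-null (filled points) array, with bars at the mean ± SD of 3 arrays. The groups are apart in Hsp90aa1, Ahsa1, Ahsa2, Stip1 and Chordc1 and overlap in Hsp90b1, Fkbp4 and Cdc37; heights are not comparable between genes.

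The cytosolic chaperone Hsp90aa1, the stress-inducible form of Hsp90, was read by 3 probe sets, of which 2 fell and the brightest did not pass. The brightest had log2 intensities of 11.92, 11.95 and 12.07 in wild-type, against 11.62, 11.84 and 11.71 in Hsf4-null lenses. The groups did not overlap, but its log2 difference of -0.25 (SE of the difference 0.10, 95% interval -0.49 to -0.02) did not pass limma (adjusted p = 0.293). The second probe set lay at 10.98, 11.06 and 10.98 in wild-type, against 10.55, 10.35 and 10.37 in Hsf4-null lenses. It fell by 0.58 on the log2 scale (SE 0.10, limma adjusted p = 0.0254), a 1.5-fold decrease. The third probe set lay at 10.78, 10.97 and 10.91 against 10.44, 10.22 and 10.33, and it fell by 0.56 (SE 0.11, limma adjusted p = 0.0370).
All 3 probe sets of Hsp90aa1 thus had each Hsf4-null array below each wild-type array. The log2 gap between the brightest and the mean of the other probe sets was 1.04, 0.93 and 1.12 in wild-type, against 1.13, 1.56 and 1.36 in Hsf4-null lenses. It was wider in each Hsf4-null array, by 0.32 on average, a comparison picked after the values were seen and so given with no test. The sources used here do not say which exons each probe set covers. With the mean of all 3 probe sets as the value of the gene, Hsp90aa1 fell by 0.46 (adjusted p = 0.0265 from limma). The call of the second probe set held without Hsf4-null replicate 1 and was lost without any other array, with adjusted p from 0.0605 without wild-type replicate 1 to 0.108 without wild-type replicate 2. The call of the third probe set was lost without any one array (adjusted p from 0.0545 without wild-type replicate 1 to 0.142 without wild-type replicate 2).

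**Figure D3:**
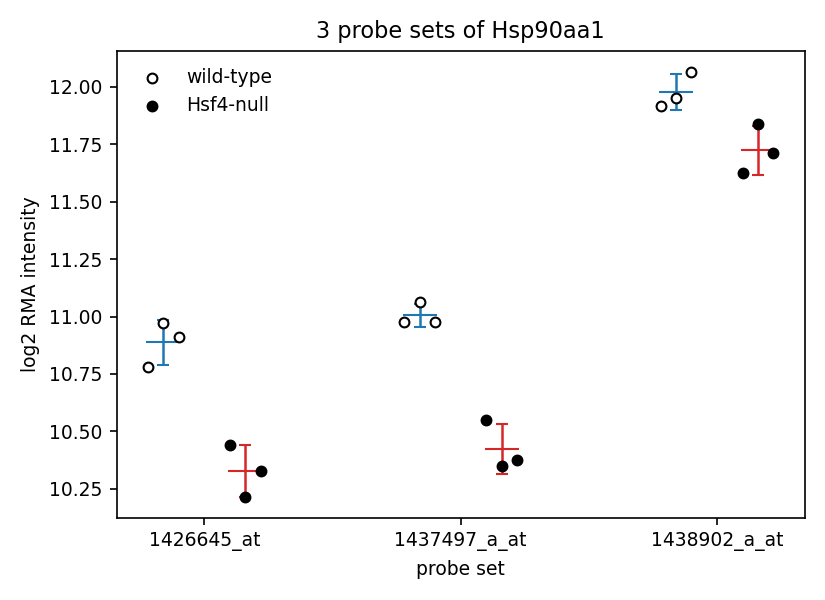
Log2 RMA intensity (vertical axis) of the 3 probe sets of Hsp90aa1 on each wild-type (open points) and Hsf4-null (filled points) array, with bars at the mean ± SD of 3 arrays. Each probe set has its groups apart. The Hsf4-null mean is lower by 0.56 and 0.58 in the pair on the left and by 0.25 in the brightest on the right.

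Hsp90b1, the endoplasmic reticulum form also known as Grp94, did not pass in either of its 2 probe sets. The brighter lay at 9.92, 9.89 and 9.90 in wild-type, against 9.95, 9.74 and 9.67 in Hsf4-null lenses, so the groups overlapped through Hsf4-null replicate 1. Its log2 difference was -0.11 (95% interval -0.36 to 0.13, limma adjusted p = 0.664), and that of the dimmer probe set was -0.03 (95% interval -0.26 to 0.20). A 2-fold change in either direction lies outside both intervals.
Whether Hsp90aa1 and Hsp90b1 differed in their change was tested on the log2 ratio of their brightest probe sets within each array. The ratio differed by -0.14 between groups, with overlapping arrays (exact permutation test, two-sided, p = 0.5, adjusted over 2 pairs p = 0.5). For Hsp90aa1 this test used the probe set that fell least (-0.25, against -0.58 and -0.56), so it speaks for the brightest probe sets only. With the mean of all probe sets of each gene the difference was -0.39, beyond the -0.22 to -0.01 seen for the brightest with 1 array left out. That form of the difference was not tested.

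The ATPase activators showed the largest decreases of the 8 genes. Ahsa1, known as Aha1, binds Hsp90 and speeds its ATP cycle, and Ahsa2 is its close relative. Ahsa2 had log2 intensities of 10.12, 10.28 and 10.30 in wild-type, against 9.08, 9.09 and 8.96 in Hsf4-null lenses. Every Hsf4-null array was at least 1 log2 unit below every wild-type array, several times the spread within either group. Ahsa2 fell by 1.19 on the log2 scale (SE 0.10, limma adjusted p = 0.000889), a 2.28-fold decrease, and 0.799% of all genes had a larger fall. Its call held without any one array (adjusted p up to 0.00802).
Ahsa1 lay at 10.43, 10.71 and 10.67 in wild-type, against 9.88, 9.60 and 9.77 in Hsf4-null lenses, with the groups apart. It fell by 0.85 on the log2 scale (95% interval -1.13 to -0.57, SE 0.12, limma adjusted p = 0.0109), a 1.81-fold decrease. Leaving out 1 array lost the call without wild-type replicate 2 (adjusted p = 0.0543) and without Hsf4-null replicate 3 (0.0518). The log2 ratio of Ahsa1 to Ahsa2 lay at 0.31, 0.43 and 0.37 in wild-type, against 0.80, 0.52 and 0.81 in Hsf4-null lenses. It was higher in every Hsf4-null array, by 0.34 on average, so that Ahsa2 was lower by the larger amount. The exact permutation test of this ratio gave p = 0.1, two-sided, the smallest that 3 arrays against 3 allow, and 0.2 when adjusted over 2 pairs.

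Stip1, also called Hop, links Hsp70 to Hsp90 so that a client can pass from one to the other. Its log2 intensities were 9.33, 9.40 and 9.54 in wild-type, against 8.80, 8.51 and 8.65 in Hsf4-null lenses. The groups were apart by more than the range of either. Stip1 fell by 0.77 on the log2 scale (95% interval -1.04 to -0.51, SE 0.11, limma adjusted p = 0.0128), a 1.71-fold decrease. Its call did not hold without wild-type replicate 2 (adjusted p = 0.0558) and without Hsf4-null replicate 3 (0.0602).
Chordc1, or Chp-1, is a zinc-binding cochaperone, and its start site carries the 5 units in a row shown above. The windows of Ahsa2, Ahsa1 and Stip1, which fell by more, held no such match. Whether the matches bear on the decreases was not tested. Chordc1 lay at 11.26, 11.45 and 11.49 in wild-type, against 10.69, 10.93 and 10.85 in Hsf4-null lenses, without overlap. Chordc1 fell by 0.58 on the log2 scale (95% interval -0.84 to -0.32, SE 0.11, limma adjusted p = 0.0388), a 1.5-fold decrease. Of the 4 calls this one was lost without the most arrays, since it held without wild-type replicate 1 (adjusted p = 0.0467) and was lost without any other single array, from 0.0712 without Hsf4-null replicate 2 to 0.143 without wild-type replicate 2.

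Fkbp4 and Cdc37 had estimates close to 0. Fkbp4, or FKBP52, is an immunophilin that joins Hsp90 in steroid receptor complexes. It lay at 8.43, 8.56 and 8.48 in wild-type, against 8.53, 8.45 and 8.37 in Hsf4-null lenses, with the groups mixed. Its log2 difference was -0.04 (95% interval -0.26 to 0.18, limma adjusted p = 0.887). A second probe set of Fkbp4 was dim, with a mean of 3.99 in wild-type lenses against 4.04 without Hsf4.
Cdc37 recruits kinases to Hsp90. Its brighter probe set lay at 7.41, 7.22 and 7.06 in wild-type, against 7.55, 7.07 and 7.06 in Hsf4-null lenses. The spread within a group was larger here than in the other genes, with an SD of 0.28 (n = 3) in Hsf4-null lenses, and the log2 difference of 0.00 had a 95% interval of -0.38 to 0.38. The dimmer probe set had means of 5.17 and 5.07, near the array medians.

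**Figure D4:**
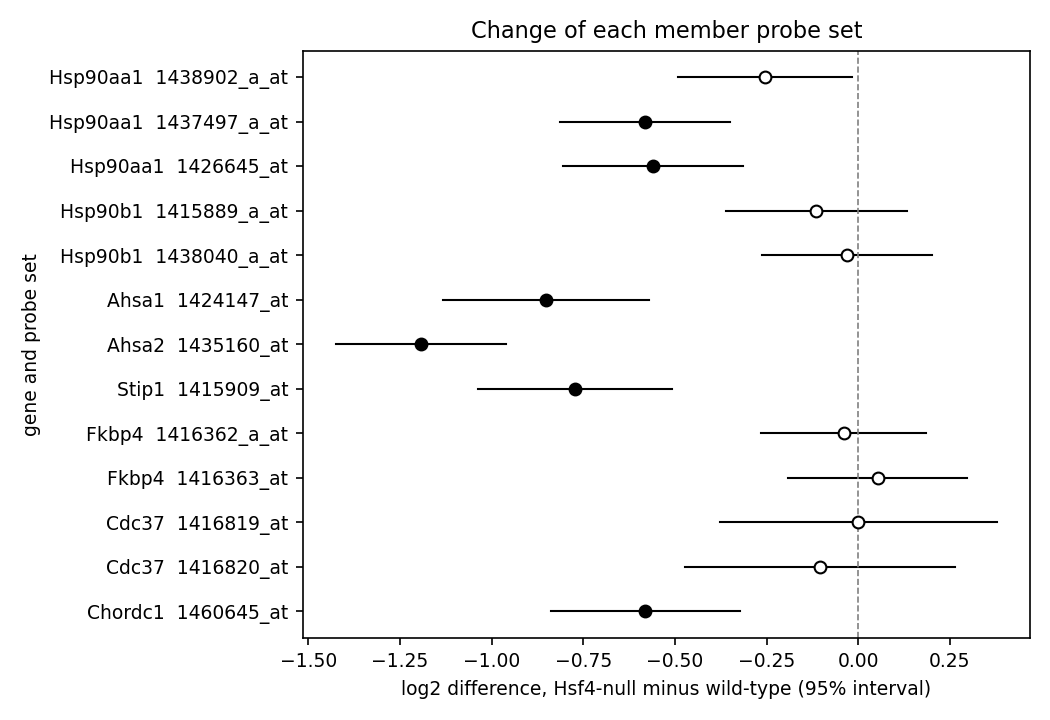
Log2 difference, Hsf4-null minus wild-type, of the 13 probe sets (horizontal axis), with limma estimates as points and 95% intervals as lines. Filled points are the 6 probe sets with an adjusted p under 0.05, all left of 0, with Ahsa2 farthest at -1.19.

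Within the wild-type group, replicate 1 was the lowest array for 6 of the 8 genes, including the 4 that fell. In the Hsf4-null group, replicate 1 was the highest for 5 of the 8, but it was the lowest for Chordc1 and Hsp90aa1. These are 3 arrays a group, and genes of one array share its RNA and normalization.
The count of 4 lower genes dropped to 1, Ahsa2, without wild-type replicate 2 or without Hsf4-null replicate 3. It stayed at 4 without wild-type replicate 1 and was 3 without each of the other arrays. Among 6888 genes brighter than the median probe set, the profile of Ahsa2 over the 6 arrays was most like those of Nif3l1, Spag5 and Ppat, with Pearson r of 0.999 each. For Ahsa1 the nearest were Angpt2 (r = 0.997), Gnb1 (r = 0.996) and Atmin (r = 0.994), and for Stip1 they were Armt1 (r = 0.999), Tnfaip6 (r = 0.997) and Fubp1 (r = 0.995). These correlations mostly carry the difference between groups and are common at this number of arrays, since 220 genes had an r over 0.95 with Ahsa2, 142 with Ahsa1 and 155 with Stip1.

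The other genes of the pathway were taken from lists by role. On the Hsp70 side, where clients are held before they pass through Stip1, 3 of 11 measured genes fell, 0 rose and 8 did not pass. St13, or Hip, an Hsp70 cochaperone, lay at 10.30, 10.50 and 10.42 in wild-type, against 9.58, 9.54 and 9.53 in Hsf4-null lenses. It fell by 0.86 on the log2 scale (SE 0.10, limma adjusted p = 0.0035), and its call held without any one array. A dimmer probe set of St13 had a log2 difference of -0.52 and did not pass.
Dnajb1, the Hsp40 that starts the cycle of Hsp70, lay at 11.88, 12.14 and 11.92 in wild-type, against 9.96, 9.83 and 9.77 in Hsf4-null lenses by its brightest probe set. It fell by 2.13 on the log2 scale (SE 0.11, limma adjusted p = 7.80e-05), a 4.37-fold decrease, and its dimmer probe set fell by 2.82. Dnaja1, another Hsp40, fell by 0.48 (SE 0.10, limma adjusted p = 0.0495), in 1 of 2 probe sets. This call held in 4 of 15 alternatives. It was lost under the methods' t-test after adjustment and in a fit with replicate number as a block (limma adjusted p = 0.118). Quantile normalization, median centring and the mean of probe sets also lost it. Without any one array it was lost too (limma adjusted p from 0.0708 without wild-type replicate 1 to 0.176 without wild-type replicate 2). At an unadjusted p under 0.05 by limma, 6 of the 11 were lower and 0 higher, against 8.38% and 7.34% of all genes. The median log2 difference of the list was -0.25, against 0.01 over all genes. The number called was 2 to 3 when 1 array was left out.
Of 27 measured genes of 32 listed as other Hsp90 cochaperones, together with the mitochondrial form Trap1, 1 fell, 0 rose and 26 did not pass. Sgtb, a TPR-domain cochaperone, lay at 6.85, 7.40 and 7.16 in wild-type, against 6.41, 6.15 and 5.83 in Hsf4-null lenses. It fell by 1.01 on the log2 scale (SE 0.19, limma adjusted p = 0.0351). That call did not survive leaving out replicate 2 (adjusted p = 0.117) or 3 (0.112) of the wild type, or replicate 2 (0.0989) or 3 (0.115) of the Hsf4-null group. Cacybp, a CS-domain protein, was next with a log2 difference of -0.52, just short of the threshold (adjusted p = 0.0510 from limma), and its groups did not overlap. The median over the 27 was -0.02. At an unadjusted p under 0.05, 3 were lower and 1 higher by limma, and 2 lower and 1 higher by the methods' t-test. These counts are near the shares over all genes, 8.38% lower and 7.34% higher by limma.

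**Figure D5:**
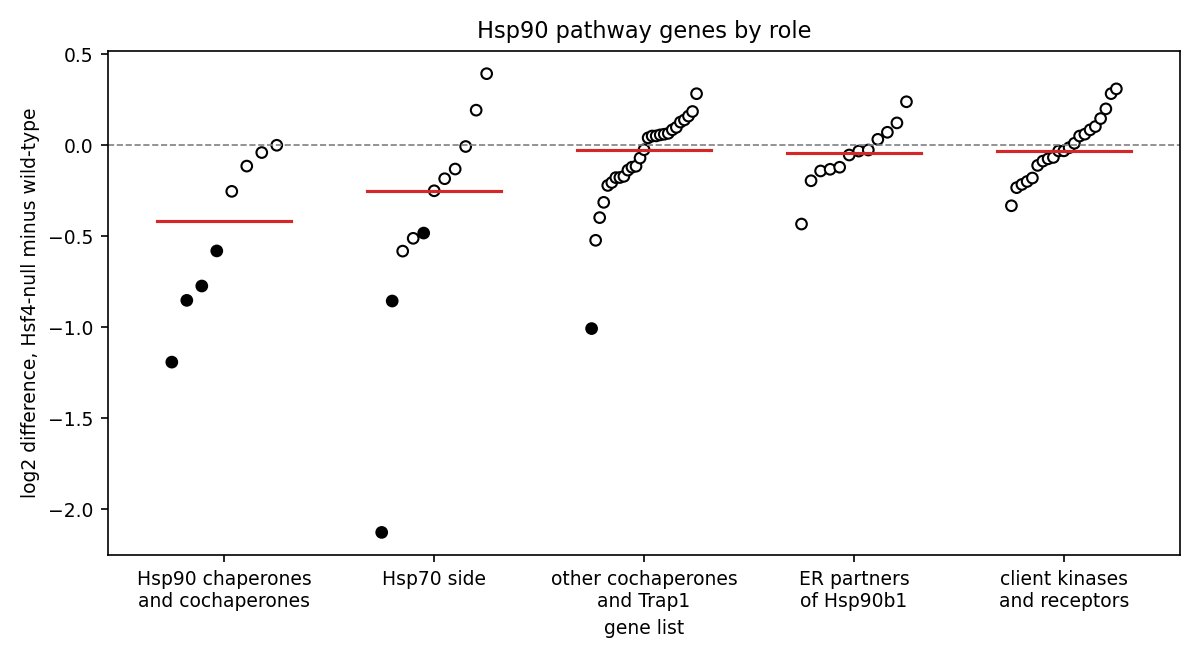
Log2 difference, Hsf4-null minus wild-type (vertical axis), of each measured gene of 5 lists, by its brightest probe set. Filled points passed limma at an adjusted p under 0.05 and red lines are medians, at -0.42 for the Hsp90 chaperones and cochaperones and -0.25 for the Hsp70 side.

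Partners of Hsp90b1 in the endoplasmic reticulum gave no call. Of 12 measured, 0 rose and 0 fell by limma, with 1 lower and 1 higher at an unadjusted p under 0.05 and the same by the methods' t-test. Pdia4, a protein disulfide isomerase, had a log2 difference of -0.43 (adjusted p = 0.169 from limma), while Hspa5, the Hsp70 of this compartment, had 0.24 (adjusted p = 0.313 from limma). A dimmer probe set of Pdia4 went the other way, at 0.09, and that of Hspa5 had 0.13. The median of the 12 genes was -0.04.
The list of clients held mostly kinases and receptors, with Hif1a, Tert and Nos3 besides. Among 21 measured of 25 listed, 0 rose and 0 fell by limma. At an unadjusted p under 0.05 there were 0 by limma or by the methods' t-test. Their log2 differences ran from -0.33 for Met, whose probe set was dim, to 0.31, with a median of -0.03. For Cdk4 the brightest probe set had 0.28 (adjusted p = 0.406 from limma). Of these 21 genes, 12 lay below the lowest array median in mean intensity. Client protein was not measured.

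Markers of lens and of neighbouring tissues were read on the same arrays. For lens fibers, 6 of 9 markers were measured, 2 of them lower (Bfsp1 and Dnase2b) and 4 not called. The summed linear intensity of the fiber markers was 55369 to 57557 in wild-type against 45403 to 48969 in Hsf4-null lenses, without overlap. Bfsp1 differed by -1.65 and Dnase2b by -1.24 on the log2 scale. Bfsp1 was the brighter, with a mean of 13.33 in wild-type against 11.68 in Hsf4-null lenses, and Dnase2b had 10.63 against 9.39. The lower sum thus rests largely on Bfsp1 and is no measure of fiber content. Crybb1 and Crygd had means over all arrays of 14.13 and 14.00, near the highest value of 14.37. The 4 not called ran from -0.14 (Mip) to -0.02 (Crybb1), and the median of the 6 was -0.10. Lens epithelium markers, 6 of 6 measured and 0 called, summed to 11856 to 13113 and 12102 to 13731. At an unadjusted p under 0.05, 2 of the 6 were lower and 0 higher by limma, Npnt at -0.44 and the dim Foxe3 at -0.38. By the methods' t-test 1 was lower and 0 higher. The shares of all genes that were lower at that threshold were 8.38% and 7.6%. For mesenchyme, 8 of 9 were measured, 4 below the lowest array median, and 2 were higher (Twist1 and Col1a1), with sums of 569.3 to 731.5 and 1057 to 1272. Col1a1 differed by 1.89 on the log2 scale, but the collagens Col1a2 and Col3a1 by 0.07 and 0.17. The 6 not called ran from -0.09 (Dcn) to 0.42 (Postn), and the median of the 8 was 0.20. In the lists for retina, macrophages, pigment cells, vessels, cornea and skin, blood and skeletal muscle, 0 genes passed limma. Of the 47 genes measured in these 7 lists, 9 were higher and 0 lower by limma at an unadjusted p under 0.05, and 3 were higher and 1 lower by the methods' t-test. The shares of all genes that were higher at that threshold were 7.34% and 5.79%. Vascular sums were also narrowly apart, at 846.5 to 1031 and 1054 to 1126. Their log2 differences were mixed, with Kdr highest at 0.58 (limma adjusted p = 0.186) but Pecam1 at -0.22 and Tie1 at -0.28. The other vascular markers were above 0, and the median of the 7 was 0.27. Pigment cell markers, 6 of 7 measured, had a median log2 difference of 0.96, with Tyrp1 at 1.30 (limma adjusted p = 0.232) and sums of 2989 to 4012 in wild-type against 3464 to 4758. Macrophage markers, 10 of 10 measured, had a median of 0.29, with Lyz2 at 1.68 (limma adjusted p = 0.103) and sums of 370.7 to 900.7 against 666.1 to 1200. Both pairs of sums overlapped. Retina markers, 8 of 11 measured, had a median of 0.38, with 0 genes at an unadjusted p under 0.05 by limma. Their sums of 236.1 to 984.7 in wild-type against 230.1 to 1217 also overlapped. The part of the fiber, epithelium, mesenchyme, vascular, pigment cell, macrophage and retina markers in the decreases of the chaperone genes was not tested.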

How the data were processed

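RNA from newborn mouse lenses was amplified and hybridized to 1-colour Affymetrix mouse arrays. The intensity values deposited are on a linear scale, and per the study's methods the authors made them with RMA, which corrects the background, normalizes across arrays and summarizes oligonucleotides by probe set. No genome build is named for the array values in the sources used here, while the windows searched for motifs are from GRCm38.p6. Of 22690 probe sets, 64 controls were left out. Of the other 22626, 20380 had 1 gene symbol in the platform annotation, 691 had several and 1555 had none. Log2 values were fitted with limma 3.58.1 (lmFit and eBayes) in R 4.3.3 over all 22626 probe sets, with Benjamini-Hochberg adjustment and a threshold of 0.05. Where a gene had several probe sets, the brightest stood for it. Each of the 6 array columns was mapped to its own sample, and whether a sample pools several animals is not stated. Motifs and figures were made in Python 3.11.15. The script was tested on simulated data.

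The members and the gene lists were chosen with earlier results of these data known, so their counts and medians are descriptions. Named list genes were, for each pathway list, up to 4 called genes by size of change, or the 2 with the lowest p where fewer than 2 were called. Other genes are named after their values were seen. The methods' t-test was run, with and without adjustment, but the second criterion of the methods, SAM, was not. In all, 15 alternatives were run. Arrays number 3 a group, which limits precision. The limma and t-test p-values set a difference between groups against the spread between arrays, for which limma also borrows from other probe sets.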

Additional observations from a re-analysis of the deposited data

How the results depend on the processing

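Under the 15 alternatives no called value changed sign, and the call of Ahsa2 held in each. Estimates near 0 that were not called did change sign: Fkbp4, at -0.04, was 0.05 by the probe set of highest variance and 0.01 by the mean of probe sets, and Cdc37, at 0.00, was -0.10 and -0.05, and -0.16 without Hsf4-null replicate 1. The dimmer probe sets of Hsp90b1, Fkbp4 and Cdc37 also changed sign when 1 array was left out. The count of 4 lower member genes was 1 with the adjusted t-test (Benjamini-Hochberg), 1 with a replicate block and 1 to 4 when 1 array was left out. The 6 lower probe sets became 1, 1 and 1 to 4. Correlations of deviations between arrays of the same replicate number were 0.252, -0.206 and -0.0806, against -0.378 to 0.406 for unlike numbers. With 3 arrays a group these values cannot say whether the replicate numbers pair the samples. The block moved calls over all probe sets from 439 lower and 163 higher to 268 and 114. The adjusted t-test and the block gave Ahsa1 at -0.85 (adjusted p = 0.116 and 0.0546 by the t-test and limma), Stip1 at -0.77 (0.110 and 0.0507) and Chordc1 at -0.58 (0.160 and 0.0642), so these calls were lost. With 1 array left out, log2 differences ran from -0.94 to -0.78 for Ahsa1, -0.85 to -0.70 for Stip1 and -0.65 to -0.52 for Chordc1. Chordc1 was also lost with quantile normalization (-0.53, limma adjusted p = 0.0519) and median centring (-0.58, 0.0881). Hsp90aa1 passed with the unadjusted t-test (-0.25), the probe set of highest variance (-0.58) and the mean of probe sets (-0.46), and its difference from Hsp90b1 became -0.39 with that mean. The 1 call among other cochaperones became 3 with the unadjusted t-test, 0 with the adjusted t-test or the block, 2 with trended and robust variance, without dim probe sets or with the mean of probe sets, and 0 to 1 with 1 array left out. Endoplasmic reticulum partners went from 0 to 2 with the unadjusted t-test. The 3 calls of the Hsp70 side became 6 with that test and 5 with trended and robust variance or the probe set of highest variance, 4 with the mean of probe sets, and 2 with the adjusted t-test, the block, quantile normalization or median centring. Causes of these shifts were not tested. The planned pair of Hsp90aa1 and Hsp90ab1 was not run, since no probe set named Hsp90ab1 alone.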
